A study of Rattus norvegicus with 6 samples.

Results

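Immediate early genes were examined in bone marrow mesenchymal stem cells (BMSCs) from rats, cultured with ginsenoside Rb1 or with DMSO. The genes are Fos, Fosb, Jun, Junb, Egr1, Egr2, Ier2, Ier3, Dusp1 and Myc, looked up by gene symbol in a deposited table of 22062 rows, which hold 21797 genes. Of these 10 genes, 9 were analysed, each from a single row that overlapped no other row, and Ier2 was not analysed here. The gene expression profile came from 6 RNA-seq libraries in 2 groups of 3. Cells of the first group were kept for 24 h in 20 µM ginsenoside Rb1, one of the saponins found in ginseng, whereas the labels of the second group give DMSO, a common solvent. All libraries came from adherent marrow cells at passages 2 to 3, taken from 4-week-old Sprague–Dawley rats that the sample labels call female and the methods of the study call male. The labels and methods name no genetic change in either group. They do not tell whether the 3 libraries of a group were separate cultures, so the p-values measure the spread between libraries, which may be technical.

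Immediate early genes are switched on within minutes of a growth factor, a stress or a fresh change of medium, without any new protein being made. Kinases of the ERK, JNK and p38 pathways activate factors that are already present in the cell, such as serum response factor (SRF) with its partners and CREB. Their transcripts are short-lived, so that most of the class returns to a low level soon after the stimulus. FOS and JUN proteins pair to form the transcription factor AP-1, which takes part in the growth and differentiation of osteoblasts. The libraries were made a day after treatment and therefore describe a standing level, not the first response.

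The recovered depth ran from 8197157 to 14177062 fragments a library, and Rb1 replicate 1 was the shallowest. That library also stood apart from its group, since its log2 values correlated with those of its own group at 0.972 on average, against 0.980 to 0.984 for each of the other libraries. Markers of stromal cells were present, with all 7 analysed, among them Thy1, Cd44 and Nt5e, at 1 FPKM or more in at least 1 library. Of these 7, Eng (−0.62), Pdgfrb (−0.44) and Cxcl12 (−0.36) were lower with Rb1 and Itgb1 (0.38) higher by log2 difference at an unadjusted p under 0.05, with groups that did not overlap and adjusted p-values of 0.119 to 0.173 in limma. Over all genes tested 14.6% were lower and 8.27% higher at that threshold. The groups did not overlap in 20.3% of all genes with Rb1 the lower and in 11.9% with Rb1 the higher. All 7 macrophage markers analysed also reached 1 FPKM in at least 1 library, and their summed level was 425.9 to 491.3 FPKM with Rb1 and 504.4 to 563.2 FPKM with DMSO. By value 6 of them were lower with Rb1 and 1 higher, where 59.0% of all genes were lower, but 0 had an unadjusted p under 0.05 from limma. Only the groups of Csf1r did not overlap. The mean of Cd68 was 236.0 FPKM with Rb1 and 285.5 FPKM with DMSO, and that of Cd14 was 132.1 and 132.4 FPKM. The 7 endothelial markers analysed summed to 21.4 to 23.4 FPKM with Rb1 and 32.1 to 49.6 FPKM with DMSO, although Cdh5, Kdr, Tek and Vwf stayed under 1 FPKM in every library. Most of the sum was Egfl7, at 14.9 to 17.0 FPKM with Rb1 and 23.0, 25.1 and 39.9 FPKM in DMSO replicates 1 to 3. By mean only Vwf was higher with Rb1, at 0.043 FPKM against 0.026 FPKM. Of the 6 lymphocyte markers only Cd4 exceeded 1 FPKM, at 8.90 to 16.4 FPKM with Rb1 and 18.8 to 22.8 FPKM with DMSO, while Cd3e, Cd3d and Ms4a1 were at 0 in every library. The sum of the 5 adipocyte markers was nearly all Fabp4, at 188.2 to 235.3 FPKM with Rb1 and 139.2 to 154.2 FPKM with DMSO. Plin1 went the other way, at 0.455 to 0.485 FPKM with Rb1 and 0.728 to 0.887 FPKM with DMSO, and Lep and Cidec were also under 1 FPKM. Of the 6 osteoblast markers Bglap, Ibsp, Sp7 and Dmp1 stayed under 1 FPKM. Runx2 was at 9.68 to 12.4 FPKM with Rb1 and 6.33 to 9.22 FPKM with DMSO, without overlap. Alpl was at 2.22 to 5.29 FPKM with Rb1 and 4.55 to 6.07 FPKM with DMSO, with overlap. Mitochondrially encoded transcripts held 18.1% to 24.8% of the summed FPKM with Rb1 and 10.2% to 18.5% with DMSO. The part of these differences in the results on the immediate early genes was not tested. In bulk RNA, fewer cells of a type cannot be told apart from less RNA per cell.

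None of the immediate early genes passed the test over all genes. By value, the members Fos, Jun, Junb, Egr1 and Egr2 were at a lower level with Rb1, although Egr1 was not without Rb1 replicate 1, Dusp1 was at a higher one, and Ier3 and Myc were close to equal in both groups. Jun and Egr2 were the members whose groups did not overlap, with ratios of the Rb1 mean to the DMSO mean of 0.761 and 0.736. The comparison asked which genes differed between Rb1 and DMSO and was tested with limma on log2(FPKM + 1), where FPKM is a fragment count scaled to transcript length and to the size of the library. A gene was tested when 3 or more libraries reached 1 FPKM, which 10781 genes did, 8 members among them. Of all genes tested, 0.0186% had an adjusted p under 0.05, and 0 of the 8 members did. An unadjusted p under 0.05 was found for 22.9% of all genes, with 14.6% lower and 8.27% higher under Rb1, and for 2 of the 8 members, both lower. The groups did not overlap, with Rb1 the lower, in 20.3% of all genes and in 2 of the 8 members, and with Rb1 the higher in 11.9% of all genes and in 0 members. By value 5 of the 8 members were lower, against 59.0% of all genes, and the median log2 difference was −0.18 over the members and −0.07 over all genes. The directions of all genes depended on the scaling, with 1575 lower and 892 higher at an unadjusted p under 0.05, against 1158 and 1279 after quantile normalization.

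**Figure D1:**
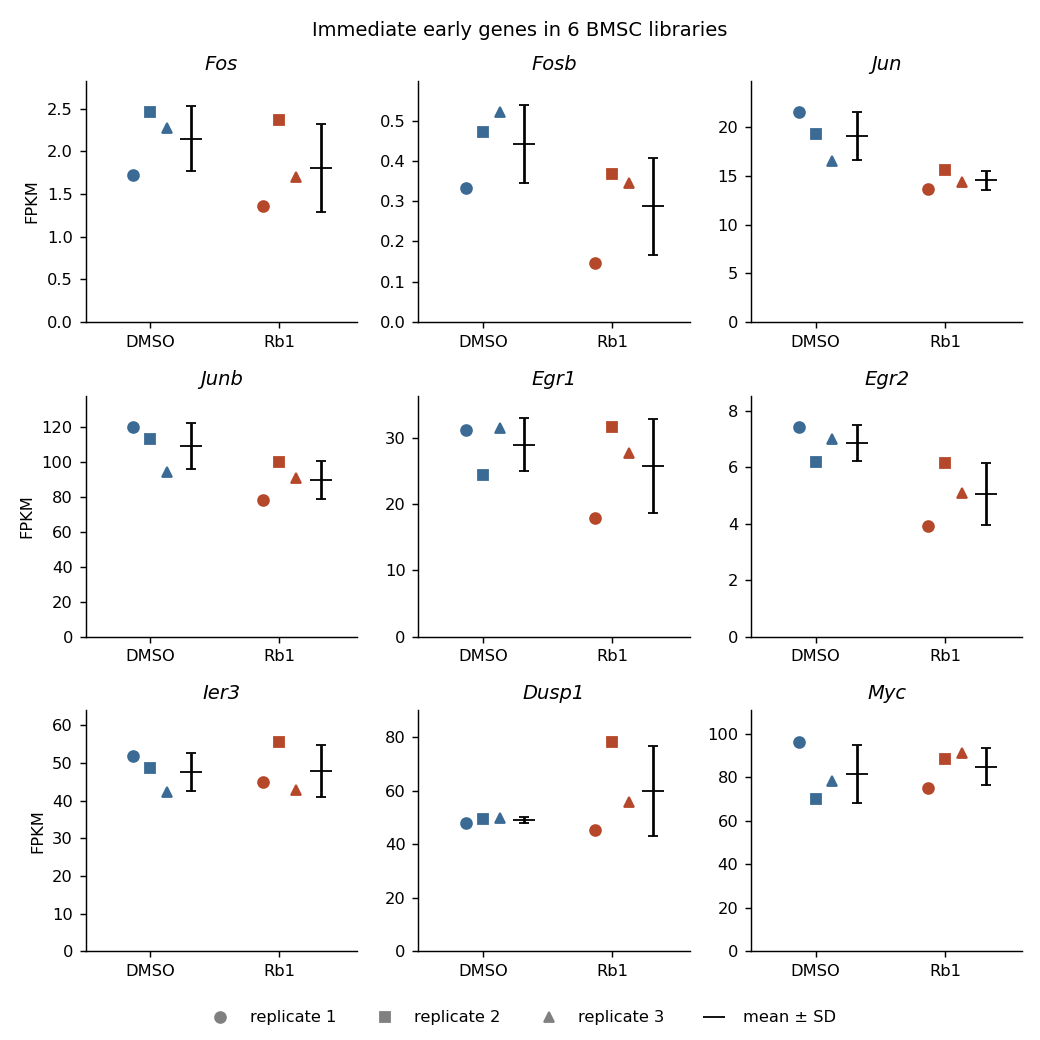
Expression of the 9 immediate early genes analysed, in FPKM on the vertical axis from 0, with 1 point per library (circles, squares and triangles for replicates 1, 2 and 3) and the mean ± SD of each group of 3 in black. The Rb1 points of Jun lie between 13.7 and 15.6 FPKM, all below the DMSO points at 16.6 to 21.5 FPKM, whereas those of Egr1 spread from 17.9 to 31.6 FPKM across the DMSO points.

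In the DMSO libraries the members ranked from Junb at 108.9 ± 13.2 FPKM (SD, n = 3) through Myc, Dusp1, Ier3, Egr1, Jun, Egr2 and Fos to Fosb at 0.441 ± 0.097 FPKM (SD, n = 3). FPKM is a level per length, so that it can be compared between genes. In that order Junb and Myc had overlapping ranges, as did Dusp1 and Ier3, and every other pair of neighbours was separate in the DMSO libraries. With Rb1 the same pairs overlapped, and Dusp1 reached into the range of Myc as well. Junb exceeded 91.6% of all genes tested in its DMSO mean, whereas Fos exceeded 11.5%.

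Of the AP-1 genes, Jun encodes the subunit c-Jun, which can pair with itself or with a FOS protein. Its level was 13.7, 15.6 and 14.4 FPKM in Rb1 replicates 1 to 3 and 21.5, 19.3 and 16.6 FPKM in DMSO replicates 1 to 3. Every Rb1 library was thus below every DMSO library, and the gap between the nearest of them was smaller than the range within either group. The log2 difference was −0.37 (standard error 0.13, 95% interval −0.67 to −0.06), with an unadjusted p of 0.0254 and an adjusted p of 0.172 from limma. A two-sided exact permutation test gave p = 0.1, the smallest that 3 libraries against 3 allow. Jun kept its direction in all 20 alternatives, from −0.46 to −0.26, and its unadjusted p was under 0.05 in 15 of them. The table places Jun (ENSRNOG00000026293) on chromosome 5 from 114011188 to 114014277, in a rat genome build that it does not name. In the same build Junb lies on chromosome 19 from 26092973 to 26094756, Fos on chromosome 6 from 109300432 to 109303299 and Egr2 on chromosome 20 from 22454462 to 22459025, while Dusp1 lies on chromosome 10 from 16970625 to 16973418.

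Junb encodes JunB, a subunit that often restrains c-Jun and that osteoblasts need for growth. It was at 78.2, 99.9 and 90.4 FPKM with Rb1 and at 119.8, 112.7 and 94.3 FPKM with DMSO. Rb1 replicate 2 lay above DMSO replicate 3, and the other Rb1 libraries lay below all DMSO libraries. Their log2 difference was −0.28 (standard error 0.15, 95% interval −0.62 to 0.06, adjusted p = 0.291 from limma). Over the 6 libraries Junb followed Jun with a Pearson correlation of 0.95, the highest of the 28 pairs of members, which is given as a description because the points share their libraries and depth.

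Fos encodes c-Fos, which has to pair with a JUN protein to bind DNA. It was near the floor of the test, at 1.36, 2.37 and 1.70 FPKM with Rb1 and 1.72, 2.45 and 2.27 FPKM with DMSO, from 17 to 45 fragments a library. The groups overlapped, and the lowest value was that of Rb1 replicate 1. On the log2 scale Rb1 minus DMSO was −0.17 with a standard error of 0.17 (adjusted p = 0.56 from limma), and the 95% interval from −0.56 to 0.22 allows a fold of 0.676 to 1.16 on the log2(FPKM + 1) scale, which understates changes at so low a level. Counting error alone amounts to a spread of 17.5% of the mean with Rb1 and 16.7% with DMSO, against an observed SD of 28.5% and 17.9%.

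Fosb, a relative of Fos that also pairs with JUN proteins, was lower still. Its fragments numbered 4, 17 and 17 with Rb1 against 12, 18 and 22 with DMSO, or 0.148, 0.366 and 0.346 FPKM against 0.333, 0.472 and 0.520 FPKM. It did not reach 1 FPKM in any library and so was outside the main test. Without the filter its log2 difference was −0.17 (unadjusted p = 0.145, adjusted p = 0.428 from limma). Rb1 replicate 1 again held the lowest value and the groups overlapped, with an SD of 42.1% of the mean with Rb1 where counting error alone amounts to 28.1%.

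Egr1 and Egr2 encode zinc finger transcription factors that bind the same GC-rich site, and both are classic targets of SRF. Egr2 is best known for its part in myelination and in the hindbrain, and in bone it acts in osteoclasts. Their promoters and that of Dusp1 are shown because they hold the letters of sites for the factors that switch immediate early genes on. Promoter sequences were found for 6 of the 10 members (Dusp1, Egr1, Egr2, Fosb, Ier2 and Junb) in the RefSeq table of the rat build GRCr8. Each sequence runs 5′ to 3′ over the 250 bases before the annotated start of the gene, at chr18:26736828-26737077 (plus strand) for Egr1, chr20:21054442-21054691 (minus strand) for Egr2 and chr10:17184603-17184852 (plus strand) for Dusp1. Capitals mark a CArG box (CC, then 6 bases that are each A or T, then GG), the site of SRF, or a full cAMP response element TGACGTCA, the site of CREB.
Egr1: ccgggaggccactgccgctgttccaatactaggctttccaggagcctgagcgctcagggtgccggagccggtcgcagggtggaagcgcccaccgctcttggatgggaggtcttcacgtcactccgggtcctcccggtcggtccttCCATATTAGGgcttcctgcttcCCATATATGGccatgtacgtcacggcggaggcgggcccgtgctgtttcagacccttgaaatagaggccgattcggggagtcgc
Egr2: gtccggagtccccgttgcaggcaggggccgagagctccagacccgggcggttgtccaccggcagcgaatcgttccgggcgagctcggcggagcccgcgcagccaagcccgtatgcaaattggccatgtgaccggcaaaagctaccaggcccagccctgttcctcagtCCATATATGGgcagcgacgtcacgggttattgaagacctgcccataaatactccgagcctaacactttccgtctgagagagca
Dusp1: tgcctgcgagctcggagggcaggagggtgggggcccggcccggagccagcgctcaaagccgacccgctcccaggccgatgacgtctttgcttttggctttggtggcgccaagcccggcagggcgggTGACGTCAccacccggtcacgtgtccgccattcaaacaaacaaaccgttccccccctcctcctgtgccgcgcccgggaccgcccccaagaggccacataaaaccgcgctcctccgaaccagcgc
Both strands were searched, and both motifs can also be read on the opposite strand. Egr1 held CArG boxes from −105 to −96 and from −83 to −74 relative to the start, and Egr2 held one at the same distance, from −83 to −74. Dusp1 held the full response element from −124 to −117, and Ier2, whose expression was not analysed, held one from −66 to −59. A CArG box stood in 1.5% of the 33469 promoters of the table over the same length and the full response element in 1.59%. Neither was found in these windows for Junb or Fosb. The shorter sequence TGACG, a part of the response element that capitals do not mark on its own, was more common. On either strand it stood in 5 of the 6 promoters (Dusp1, Egr1, Egr2, Ier2 and Junb) and in 18.2% of all promoters. A match of letters is a description and does not show that a factor was bound in these cells.

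Egr1 was at 17.9, 31.6 and 27.8 FPKM with Rb1 and at 31.1, 24.3 and 31.4 FPKM with DMSO. Rb1 replicate 2 was the highest of all libraries and Rb1 replicate 1 the lowest, so that the Rb1 group spanned the DMSO group. Between the groups the log2 difference was −0.19 (standard error 0.22, 95% interval −0.70 to 0.32, adjusted p = 0.622 from limma). Without Rb1 replicate 1 it turned to 0.04 (adjusted p = 0.884 from limma). The SD was 27.4% of the mean with Rb1, where counting error alone amounts to 3.19%.

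Egr2 was at 3.94, 6.16 and 5.09 FPKM with Rb1 and at 7.43, 6.19 and 7.0 FPKM with DMSO. The groups did not overlap, although Rb1 replicate 2 and DMSO replicate 2 were almost equal. The log2 difference was −0.39 (standard error 0.16, 95% interval −0.76 to −0.02), the most negative of the members, with an unadjusted p of 0.0422 and an adjusted p of 0.204 from limma. A two-sided exact permutation test gave p = 0.1, the smallest possible. The difference stayed below 0 in all 20 alternatives, from −0.52 to −0.17, and its unadjusted p from limma was under 0.05 in 11 of them. That p was 0.099 with quantile normalization and 0.0926 with scaling to equal medians. Without Rb1 replicate 1 the difference was −0.25 with an unadjusted p of 0.0897 from limma. Egr1 and Egr2 followed each other over the 6 libraries with a Pearson correlation of 0.85, given as a description.

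**Figure D2:**
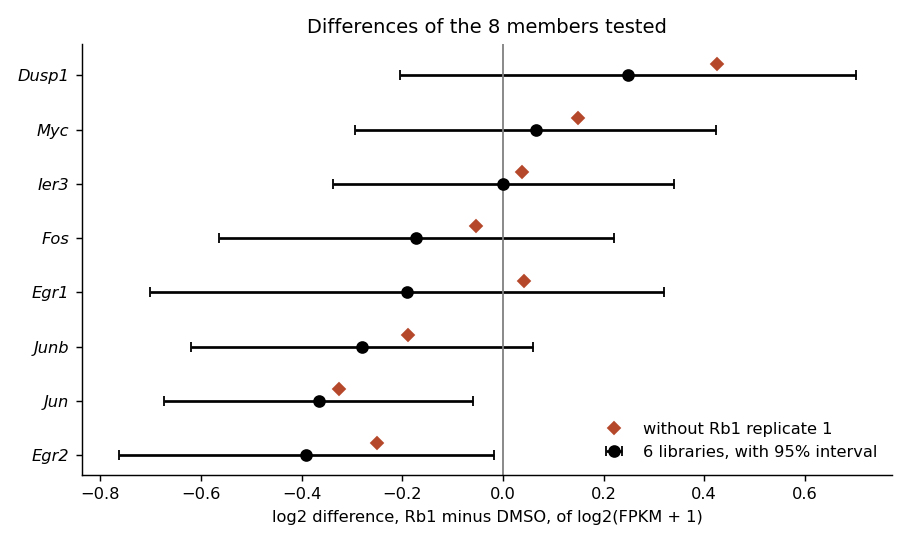
Log2 difference between Rb1 and DMSO on the log2(FPKM + 1) scale for the 8 members tested. Black points and bars give the value from all 6 libraries with its 95% interval, and red diamonds give the value without Rb1 replicate 1. The intervals of Jun (−0.67 to −0.06) and Egr2 (−0.76 to −0.02) lie below 0, and those of the other 6 members cross it.

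Dusp1 encodes a phosphatase that switches off p38, JNK and ERK kinases and so limits the response that induced it. It is also induced by glucocorticoids. It was at 45.5, 78.3 and 55.9 FPKM with Rb1 and at 47.8, 49.6 and 49.7 FPKM with DMSO. The DMSO libraries were nearly identical, with an SD of 2.21% of the mean, whereas the Rb1 libraries spread by 28.0%, with 1 library below and the others above all DMSO libraries. The log2 difference was 0.25 (standard error 0.19, 95% interval −0.20 to 0.70, adjusted p = 0.463 from limma). It depended on single libraries, at 0.43 without Rb1 replicate 1 (unadjusted p = 0.0332, adjusted p = 0.178 from limma) and 0.04 without Rb1 replicate 2.

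Ier3 encodes a stress-inducible protein that acts on cell survival and on ERK signalling. Its level was 45.0, 55.6 and 42.7 FPKM with Rb1 and 52.0, 48.7 and 42.2 FPKM with DMSO, so that the groups covered the same range. The log2 difference was 0.001 (standard error 0.15), and its 95% interval from −0.34 to 0.34 allows a fold of 0.791 to 1.27 in either direction. The sign of so small a value changed in 4 of the 20 alternatives.

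Myc encodes a transcription factor of growth and ribosome production that pairs with MAX. It was at 75.2, 88.5 and 91.1 FPKM with Rb1 and at 96.4, 70.0 and 78.2 FPKM with DMSO. In FPKM the DMSO libraries held both the highest and the lowest value. This gave a log2 difference of 0.07 (standard error 0.15, 95% interval −0.29 to 0.42, adjusted p = 0.819 from limma). For Myc and Fosb the ratio of scaled count to FPKM, which follows the transcript length that the authors' program used, varied between libraries by 5.25% and 4.03% (coefficient of variation, after each library's own factor), whereas it varied by 0.72% or less for the other members. For Myc in Rb1 replicate 1 the ratio was 90.1% of its mean, against 99.6% to 104.5% in the other libraries. On the deposited scaled counts, which do not use this length, the log2 difference of Myc was −0.0063. The median spread over the 10815 rows above 0.5 FPKM in every library was 0.395%, and 25.2% of them reached 1%.

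Rb1 replicate 1 held the lowest of the 6 values in 7 of the 9 members analysed, and in 6 of the 8 tested. Over all genes tested that library was the lowest in 33.8% and the highest in 27.3%. The exceptions in FPKM were Ier3, which was lowest in DMSO replicate 3, and Myc, lowest in DMSO replicate 2. On the deposited scaled counts, which do not use the varying length, Rb1 replicate 1 was the lowest for Myc as well. On the log2(FPKM + 1) scale this library lay below the mean of the other Rb1 libraries for all 8 tested members, by a median of −0.32, against −0.00062 over all genes, with the widest gap for Egr1 (−0.69) and Dusp1 (−0.53). Without it the median log2 difference between Rb1 and DMSO over the members was −0.0073, with 4 of 8 lower by value, while Jun (lower) and Dusp1 (higher) had an unadjusted p below 0.05 in limma's test. Over all genes tested the median was then −0.064, with 6420 of 10781 lower by value. At an unadjusted p below 0.05 from limma, 15.1% of all genes were lower and 8.62% higher. Of the 28 pairs of members, 26 had a correlation above 0 over the 6 libraries, with a median of 0.44, a description to which Rb1 replicate 1 contributes.

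**Figure D3:**
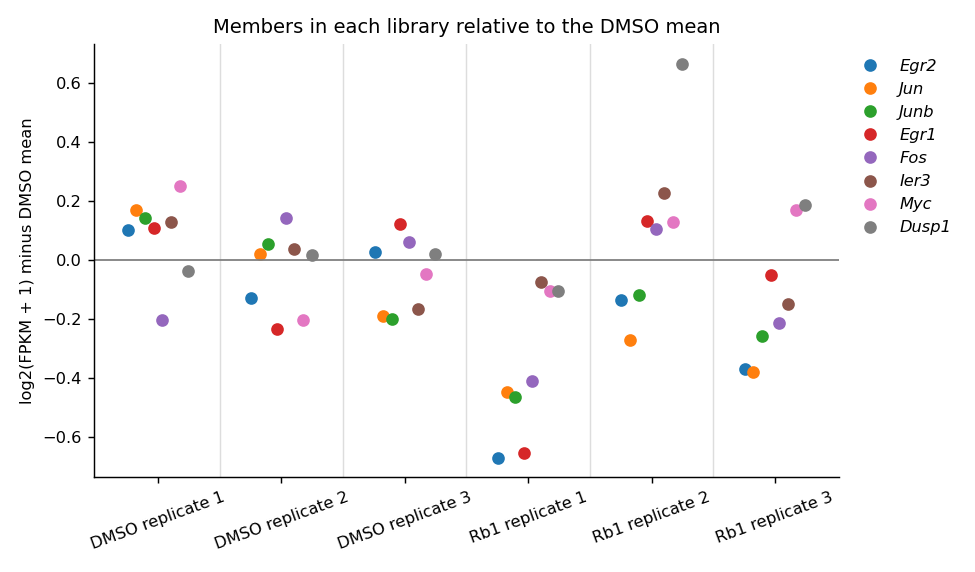
Level of each tested member in each library as log2(FPKM + 1) minus the mean of the 3 DMSO libraries, with colours for genes. All 8 points of Rb1 replicate 1 lie below 0, while in Rb1 replicate 2 Dusp1 stands highest and Jun lowest.

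Immediate early proteins act in families, so the members were also set beside their relatives, per length and within each library. Among the JUN genes, Junb made up 51.8% ± 0.55 (SD, n = 3) of the summed FPKM with DMSO, Jund, the steadily expressed member, 39.1% ± 0.46, and Jun 9.09% ± 0.14. With Rb1 the same shares were 52.4% ± 5.96, 39.0% ± 7.44 and 8.61% ± 1.5 (SD, n = 3), with the 3 Rb1 libraries on both sides of the DMSO values for each gene. Jund itself was at 42.0, 99.4 and 68.1 FPKM with Rb1 and 91.6, 83.1 and 72.4 FPKM with DMSO, a log2 difference of −0.31 (adjusted p = 0.536 from limma) that became 0.0051 without Rb1 replicate 1.

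Among the FOS genes, Fosl1 (Fra-1), a form that outlasts the first response and that osteoblasts use in making bone matrix, held most of the total. Its share was 88.8% to 90.1% with Rb1 and 84.0% to 85% with DMSO, whereas Fos held 4.50% to 6.02% and 4.74% to 7.24%. The shares of Fosl1 did not overlap between groups, yet its level, 25.6, 35.1 and 33.6 FPKM with Rb1 and 30.8, 28.8 and 27.8 FPKM with DMSO, did overlap (log2 difference 0.10, adjusted p = 0.714 from limma). Fosl2 (Fra-2) held 3.87% to 5.80% of the total with Rb1 and 6.52% to 9.38% with DMSO. Its level was 1.32, 1.52 and 2.19 FPKM with Rb1 and 3.40, 2.21 and 2.49 FPKM with DMSO, where the nearest values of the groups were almost equal (log2 difference −0.47, adjusted p = 0.18 from limma).

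Among the EGR genes, Egr1 held 75.9% to 77.7% of the total with Rb1 and 71.3% to 73.1% with DMSO, again without overlap. Egr3, which binds the same site, was at 1.31, 3.90 and 2.88 FPKM with Rb1 and 4.13, 3.58 and 4.54 FPKM with DMSO, with a log2 difference of −0.52 (adjusted p = 0.277 from limma) that was −0.22 without Rb1 replicate 1. Egr4 was listed at 0 in every library. These shares were not tested, and with 3 libraries against 3 no exact permutation test of a share could go below p = 0.1.

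**Figure D4:**
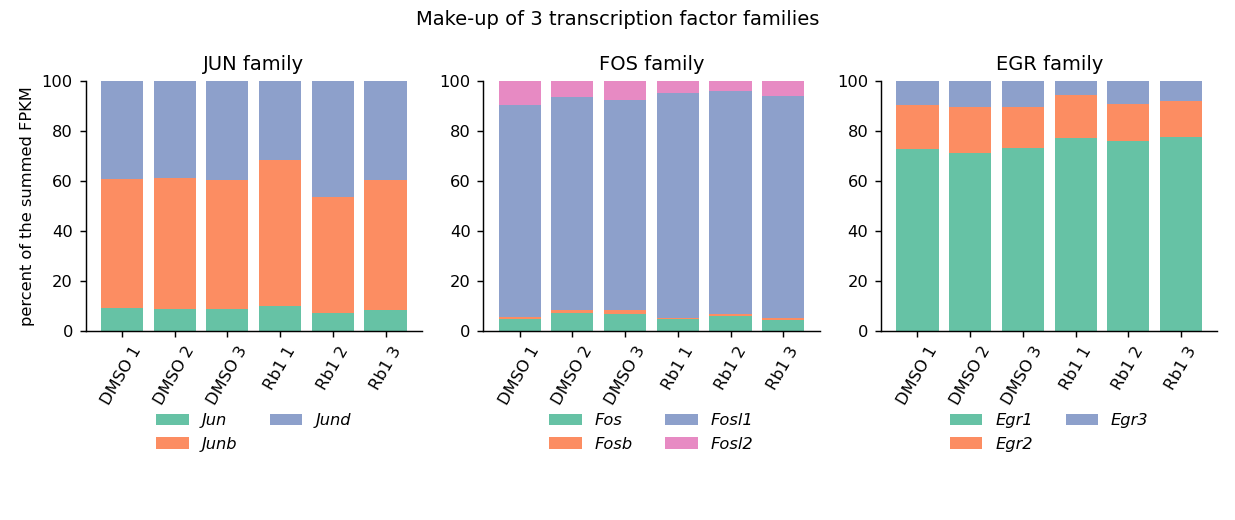
Share of each gene in the summed FPKM of its family, in percent, as stacked bars from 0 to 100 for each library. Fosl1 fills 84.0% to 90.1% of the FOS family in every library, and the JUN shares differ more among the Rb1 libraries than among the DMSO libraries.

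Further genes of the immediate early response were taken from 12 lists of relatives, activators, inhibitors and targets, with 196 tested genes in all. Of these 20 were higher (10.2%) and 31 lower (15.8%) with Rb1 by limma's unadjusted p (below 0.05), against 8.27% and 14.6% of all genes, and 1 passed over all genes. In the accounts of the lists, higher and lower refer to this unadjusted threshold unless a value is said to be so by value. The shares of all genes changed with the setting as well. They were 11.9% higher and 10.7% lower after quantile normalization, and 12.5% and 9.43% with scaling to equal medians. Without Rb1 replicate 1 they were 8.62% and 15.1%, with a median log2 difference of −0.064 over all genes. Of 15 further AP-1 subunits, 3 were lower and 0 higher, with a median log2 difference of −0.17, among them Fosl2 and Mafg (−0.40, adjusted p = 0.216 from limma), a small partner protein. Without Rb1 replicate 1 that median was 0.0057, with 1 higher and 2 lower, and neither named gene had an unadjusted p under 0.05. After quantile normalization 1 was lower, and again neither named gene had (unadjusted p = 0.0513 for Fosl2 and 0.0882 for Mafg in limma's test). Of 19 other immediate early transcription factors, 4 were lower and 0 higher, with a median of −0.26 and −0.16 without Rb1 replicate 1. These 4 were Ier5l (−1.04, adjusted p = 0.117 from limma), Klf6 (−0.54), Klf4 (−0.46) and Bhlhe40 (−0.30). Klf4 and Klf6 encode Krüppel-like zinc finger factors, and Bhlhe40 a repressor that also acts in the circadian clock, whose unadjusted p was 0.0882 without Rb1 replicate 1 and 0.0587 after quantile normalization. Of 3 tested genes of Egr3 and the NAB co-repressors, which bind EGR proteins and curb them, Nab1 was higher (0.31, adjusted p = 0.18 from limma) and none was lower.

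Of 26 other immediate early effectors, 2 were higher and 2 lower, and the median was 0.05. Cited2, a transcriptional co-regulator (0.61), and Sgk1, a kinase induced by serum and glucocorticoids (0.27), were higher, and Pim1, a survival kinase (−0.47), and Socs3, a cytokine signalling inhibitor (−0.88), were lower, where limma's adjusted p ranged from 0.121 to 0.184. Socs3 was at 25.4, 33.6 and 32.9 FPKM with Rb1 and at 91.5, 46.9 and 42.5 FPKM with DMSO, where replicate 1 stood far above the others. Without Rb1 replicate 1 the unadjusted p of Socs3 from limma was 0.0565, with 3 of the list higher and 1 lower. Of 13 MAP kinase phosphatases and RAS-ERK inhibitors outside the members, 1 was lower, Spred2 (−0.82, adjusted p = 0.121 from limma), which restrains ERK signalling, and the median was −0.09. Without Rb1 replicate 1 it was 0.07, with 2 higher and 1 lower. Of 18 transcription factors that switch immediate early genes on, 3 were lower and 0 higher, with a median of −0.22 that became −0.05 without Rb1 replicate 1. They were Creb1 (−0.48), which encodes CREB, and the NF-kappaB genes Rela (−0.38) and Nfkb1 (−0.36). After quantile normalization 1 of the list was lower and 1 higher, and with scaling to equal medians 1 was lower and 0 higher. The unadjusted p of Rela and Nfkb1 was then 0.0635 and 0.0689 with the former and 0.0703 and 0.0863 with the latter. Of 21 ERK, JNK, p38 and RSK pathway kinases, 4 were lower and 1 higher, with a median of −0.11. The ERK kinase gene Map2k2 (−0.60) and the p38 gene Mapk14 (−0.47) were on the lower side and the JNK gene Mapk8 (0.42) on the higher. Without Rb1 replicate 1 the median was −0.021, with 4 lower and 0 higher, and the unadjusted p of Mapk8 was 0.0729.

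Of 10 genes of the MYC network, 2 were lower and 0 higher, both encoding proteins that compete with MYC for MAX, Mnt (−0.55) and Mxd4 (−0.36), with 0.153 and 0.177 as limma's adjusted p. The median over this list was −0.15, and after quantile normalization 1 was lower and 0 higher (unadjusted p = 0.0503 for Mxd4 from limma). Of 22 MYC target genes, 6 were higher and 4 lower with a median of 0.06. The split was 6 higher and 1 lower after quantile normalization, 7 and 2 with scaling to equal medians, and 6 and 2 without Rb1 replicate 1. Over all genes the lower share was 14.6% in the main setting and 10.7%, 9.43% and 15.1% in these settings. The higher share was 8.27% and then 11.9%, 12.5% and 8.62%. The higher ones included the chaperonin gene Hspe1 (0.87), the translation factor gene Eif4e (0.49) and the nucleolar genes Nop58 (0.34) and Ncl (0.33). Of 16 AP-1 target genes, 5 were higher and 2 lower with a median of 0.06. They included Ccl2 (0.73) and Il6 (0.86), which encode inflammatory cytokines, the bone matrix gene Spp1 (0.47) and the collagenase gene Mmp13 (0.53), each with an adjusted p of 0.117 or 0.118 from limma. Of 11 EGR1 target genes, 2 were higher and 3 lower with a median of −0.13. Gdf15, a stress cytokine, was the 1 listed gene that passed (−1.30, adjusted p = 0.0286 from limma). Its call ended when libraries were scaled to equal medians (adjusted p = 0.0548 from limma). It also ended when Rb1 replicate 1 was left out together with quantile normalization (adjusted p = 0.0569 from limma). The call was absent too where no gene passed, which included leaving out Rb1 replicate 2 or 3 or DMSO replicate 2 or 3. The clotting gene F3 (0.34) was higher. Of 22 genes that degrade short-lived transcripts, 3 were higher and 3 lower, among them the exosome genes Exosc9 (0.69) and Exosc5 (−0.56) and the deadenylase genes Cnot7 (0.62) and Cnot1 (−0.34).

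**Figure D5:**
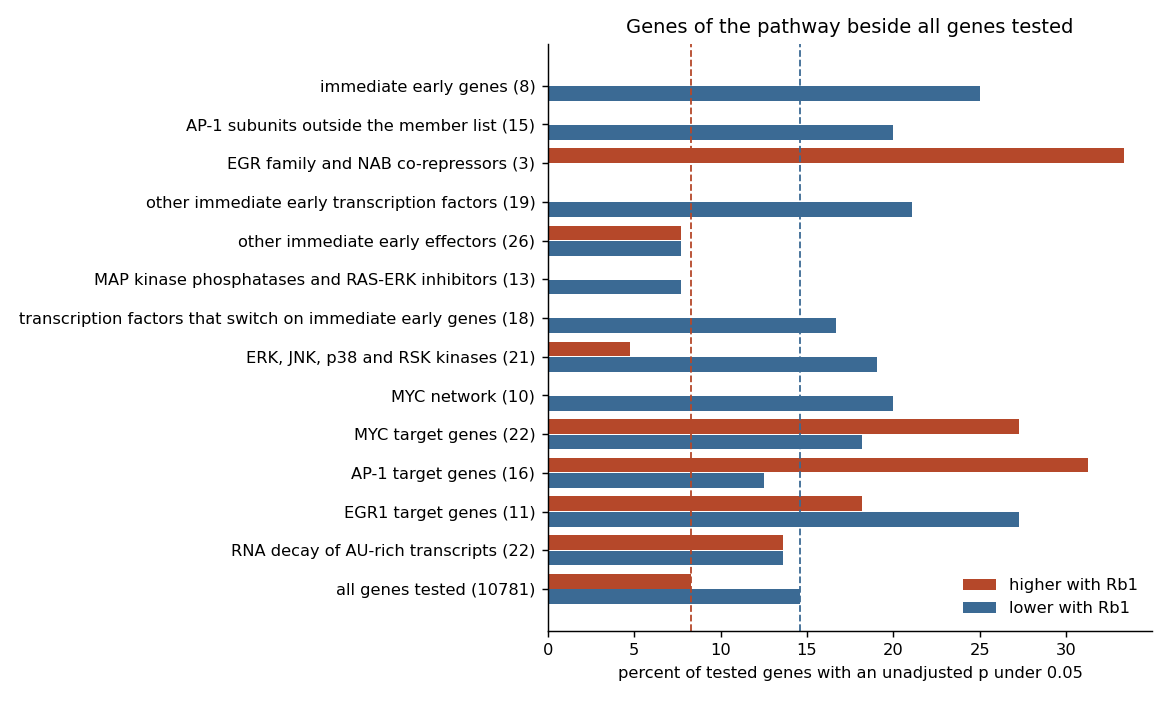
Percent of tested genes whose unadjusted p from limma was below 0.05, for the members, each of the 12 lists and all genes tested, with the number tested in brackets. Red bars are higher and blue bars lower with Rb1, and the dashed lines repeat the shares of all genes, 8.27% and 14.6%. Among the members 25.0% (2 of 8) were lower and none was higher.

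The genes outside the list whose pattern over the 6 libraries was most like the mean standardized profile of the 8 tested members were Wdr18, Csnk1g2, Hoxb5, Cebpd and Jund, with Pearson correlations of 0.985 to 0.994. Over so few libraries 2.22% of all genes tested reached 0.9, and the members themselves ranged from 0.49 for Myc to 0.88 for Egr2. Cebpd encodes C/EBP-delta, a factor that is itself quickly induced by inflammation and glucocorticoids. It was at 109.7, 208.0 and 160.1 FPKM with Rb1 and 209.7, 170.9 and 156.1 FPKM with DMSO, so the groups overlapped and Rb1 replicate 1 was again the lowest.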

How the data were processed

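RNA-seq of 6 rat BMSC libraries was analysed, 3 per group, grouped by the treatment label. Ribosomal RNA had been removed before stranded libraries were prepared. CASAVA 1.8, HISAT2 and the build hg19 are listed by the submitters' processing notes, although hg19 is a human build and the identifiers are those of rat genes. No source used here gives the counting program. The authors deposited FPKM values, and a signal headed as counts that is fragment counts times 1 factor per library. Dividing by this factor gave whole fragments, within 0.05, for 99.4% to 99.5% of values under 1000 fragments.

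FPKM of rows with the same symbol were added up. Values were taken as log2(FPKM + 1) and fitted with limma 3.58.1 in R 4.3.3 (lmFit, eBayes), with Benjamini-Hochberg adjustment over 10781 genes. A difference is Rb1 minus DMSO. The fit was tested on simulated data. Between replicates, chi-square divided by its degrees of freedom was 10.8 to 39.7, above counting noise. The text names all members, up to 4 genes of each of the 12 lists by smallest p (some are not reported here), the 5 genes most like the members' mean profile, and the JUN, FOS and EGR relatives, of which those outside this rule were chosen after their values were seen. The members and lists were chosen with earlier results of these data known. In all, 20 alternatives were tried. Intervals cover the spread between libraries, and fragment spreads cover counting error only. The expression of Ier2 was not analysed here.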

Additional observations from a re-analysis of the deposited data

How the results depend on the processing

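No member had an adjusted p under 0.05 from limma in any of the 20 alternatives, where the lowest was 0.0766 for Jun with array weights, and the range for Jun was 0.0766 to 0.427. Jun, Junb, Egr2 and Dusp1 kept their direction throughout. Among the other members the sign turned for Ier3 with array weights (−0.064), with scaling without mitochondrial genes (−0.0025), without Rb1 replicate 2 (−0.11) and without DMSO replicate 3 (−0.08), for Myc on scaled counts (−0.0063) and without DMSO replicate 2 (−0.037), and for Egr1 without Rb1 replicate 1 (0.041). On leaving out single libraries the values ran from −0.11 to 0.076 for Ier3, from −0.037 to 0.19 for Myc and from −0.35 to 0.041 for Egr1. The members with an unadjusted p under 0.05 from limma, 2 in the main setting, numbered 0 with scaling to equal medians, 1 with quantile normalization, 1 with scaling without mitochondrial genes and 0 to 2 on leaving out single libraries (0 without Rb1 replicate 3 or DMSO replicate 1, 1 without DMSO replicate 2). Over all genes that number was 2467 in the main setting and 2363 with scaling to equal medians. It was 2437 with quantile normalization and 2289 with scaling without mitochondrial genes. The median over the members lay between −0.33 (without Rb1 replicate 2) and −0.0073 (without Rb1 replicate 1). Over all genes it was −0.053 and −0.064 in the same settings. An alternative chosen after seeing the data, without Rb1 replicate 1 and with quantile normalization, gave 0.044 for the median, 0.022 for Fos, 0.11 for Egr1, 1 member with an unadjusted p under 0.05 and 4 genes with an adjusted p under 0.05. Over all genes the median was then −0.0011, with 2543 at an unadjusted p under 0.05 from limma. The use of scaled counts and the repeat of the lists without Rb1 replicate 1 were also chosen after seeing the data. The number of genes with an adjusted p under 0.05, 2 in the main setting, was 1 with a mean FPKM of at least 5, with scaling to equal medians and with scaling without mitochondrial genes, 800 with array weights, 0 with voom (2426 at an unadjusted p under 0.05), 0 on scaled counts (2409) and 0 to 6 on leaving out single libraries (1463 to 2554), with 6 without Rb1 replicate 1, 2 without DMSO replicate 1 and 0 without any other. The cause of these changes was not tested.

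With the replicate number as a block 0 genes had an adjusted p under 0.05 (2082 unadjusted) and 1 member had an unadjusted p under 0.05, Jun. Deviations from the group mean correlated at −0.0038, −0.04 and 0.16 between libraries with the numbers 1, 2 and 3. The value for number 3 was the highest of all pairs, and not every library correlated best with its own number. Whether a shared number marks a shared culture or batch cannot be told from these values or the labels. The planned negative binomial models of the counts were not run, because a small part of the recovered fragments were not whole numbers after division by the library's factor. Voom on the recovered fragments was run. Depth limited Fos and Fosb most, with 4 to 45 fragments a library.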
